A study of Homo sapiens with 2 samples.

Results

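The genes described here are 60 chromatin modifiers, enzymes and core subunits that write, erase or read marks on histones and DNA or move nucleosomes. They were chosen by name, but with earlier results of these data known. Older and newer symbols were taken as the same gene, and a gene carried an interval if the authors' list assigned one to it. Of the 60 genes, among 20136 protein-coding genes in all, 21 carried 27 intervals and 39 carried none. The experiment was chromatin immunoprecipitation with sequencing (ChIP-seq) in U-87 MG, an established human malignant glioma cell line, engineered to overexpress sGCβ1, a subunit of soluble guanylate cyclase. There was 1 library made with an anti-sGCβ1 antibody and 1 input library, both from the overexpressing cells and with no treatment. The sources used here do not say whether the overexpressing cells were a clone or a pool, and cells without the transgene were not analysed here. Values come from the interval list of the ChIP library, so values lack a replicate error and no difference was tested. The input library enters no value, and the number of reads behind an interval is unknown.

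Soluble guanylate cyclase is best known as the cytosolic receptor for nitric oxide, with its haem held by sGCβ1, and its product is cyclic GMP. Chromatin modifiers act in opposed pairs: acetyltransferases and deacetylases, methyltransferases and demethylases, DNA methyltransferases and the TET enzymes that oxidise methylated cytosine. Polycomb complexes keep genes silent through histone marks, and remodellers use ATP to slide or evict nucleosomes. Several of these genes, among them ARID1A, SETD2 and EZH2, are recurrently altered in human cancers.

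The genomic sequence at the intervals that lead the set, or that share a word, is shown first. All sequences are hg19, forward strand, 5′ to 3′, and capitals mark matches on either strand to 11 words that were searched. They were the E-box CACGTG, the AP-1 word TGANTCA, the cyclic AMP response element TGACGTCA and its relative GTGACGT, the ETS word CCGGAAG, the GC box GGGCGG, the CCAAT box, the YY1 word ATGGCG, the CpG-rich word TCGCGA, the further CpG-rich word CGTCGC and the NRF1 palindrome. A match is a description of the letters and not a bound site. Some words overlap, as in the KDM4C sequence, where the E-box and the AP-1 word share letters. The following are from the intervals at the starts of EED (chr11:85955675-85955794, just upstream of its first coding transcript at this start), KAT5 (chr11:65479387-65479496), HDAC2 (chr6:114292430-114292529) and HDAC4 (chr2:240323336-240323420), the 4 tallest intervals at the genes' own starts.
EED: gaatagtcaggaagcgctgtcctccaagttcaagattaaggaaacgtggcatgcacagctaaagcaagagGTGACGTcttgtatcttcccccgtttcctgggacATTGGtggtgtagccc
KAT5: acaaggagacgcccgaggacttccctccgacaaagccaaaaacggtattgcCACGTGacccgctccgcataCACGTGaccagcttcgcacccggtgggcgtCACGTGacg
HDAC2: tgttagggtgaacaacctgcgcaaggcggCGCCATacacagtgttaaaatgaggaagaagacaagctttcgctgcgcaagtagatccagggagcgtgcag
HDAC4: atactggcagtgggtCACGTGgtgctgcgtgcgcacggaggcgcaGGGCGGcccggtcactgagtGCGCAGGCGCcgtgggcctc

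A further group of intervals held the E-box more than once within 150 bp of the summit. They are those assigned to HDAC3 (chr5:140998748-140998892), HDAC5 (chr17:42148028-42148057) and KDM4C (chr9:6757902-6757931, which shows the first of 2 copies).
HDAC3: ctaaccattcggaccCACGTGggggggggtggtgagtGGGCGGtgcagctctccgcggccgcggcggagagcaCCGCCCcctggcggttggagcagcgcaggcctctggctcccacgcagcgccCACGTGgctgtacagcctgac
HDAC5: ccCACGTGcctgcaacagtggcCACGTGgg
KDM4C: tgtaagccCACGTGACTCAccaagtgcggg

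The AP-1 word was found at summits inside gene bodies. Examples are both HDAC9 intervals (chr7:18935135-18935181 and chr7:18998290-18998336), that of DOT1L (chr19:2169017-2169067) and 1 of those of ARID1A (chr1:27098707-27098753) and ARID1B (chr6:157429394-157429440).
HDAC9, first: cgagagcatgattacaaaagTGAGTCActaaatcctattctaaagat
HDAC9, second: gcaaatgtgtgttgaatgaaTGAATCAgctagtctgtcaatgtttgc
DOT1L: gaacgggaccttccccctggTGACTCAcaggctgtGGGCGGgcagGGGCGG
ARID1A: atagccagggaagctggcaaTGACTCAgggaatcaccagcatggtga
ARID1B: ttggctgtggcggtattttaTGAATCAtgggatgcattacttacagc

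Chromatin modifier genes carried an interval more often than protein-coding genes at large, and the counts differed between classes. An interval was assigned to 21 of the 60 genes (35%, exact Clopper-Pearson 95% interval 23.1 to 48.4), beside 15.4% of all protein-coding genes. A summit lay within 1000 bp of the gene's own start in 9 of 60 (15%, 7.1 to 26.6), beside 6.87%. Within 500 bp it was 6 of 60 (10%, 3.76 to 20.5), beside 5.81%, which lies inside that range. Within 5000 bp it was 13 of 60 (21.7%, 12.1 to 34.2), beside 8.54%. Intervals elsewhere only were assigned to 12 of 60 (20%), beside 8.51%, and a summit inside the gene by the authors' list was found in 11 of 60 (18.3%), beside 7.56%. Where the gene had the nearest start among those listed for an interval, the count was 16 of 60 (26.7%), beside 10.9%, and by annotation alone, with a summit in the gene or within 1000 bp of a coding start, it was 17 of 60 (28.3%), beside 12.7%. The 95% intervals cover counting error only and treat genes as independent. They do not allow for the choice of genes with earlier results of these data known.

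Over all protein-coding genes these shares differed with gene length, promoter type and chromosome, and the part of these in the counts of the set was not tested. The 21 genes with an interval had a median length of 77.6 kb and the 39 without one 84.0 kb, while protein-coding genes had a median of 27.2 kb. Among genes over 50 kb an interval was assigned to 13 of 40 chromatin modifiers (32.5%), beside 19.2% of such protein-coding genes, and among shorter genes to 8 of 20 (40%), beside 13.5%. In the RefSeq promoter sequences (GRCh38, 250 bases before to 50 after the start), which matched 58 of the 60 genes, 50 (86.2%) had a CpG observed-to-expected ratio of 0.6 or more, beside 66.6% of protein-coding genes. Among genes with such CpG-rich promoters, an interval was assigned to 15 of 50 (30%), beside 20%. In the same genes a summit at the own start was found in 8 of 50 (16%, 7.17 to 29.1), beside 10.3%, which lies inside that range. Within the set, a summit at the own start was found in 6 of 40 genes over 50 kb and in 3 of 20 shorter ones, 15% in both. All 6 genes of the set on chromosomes 4 and X had no interval, on chromosomes where 3.81% of protein-coding genes had one.

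**Figure D1:**
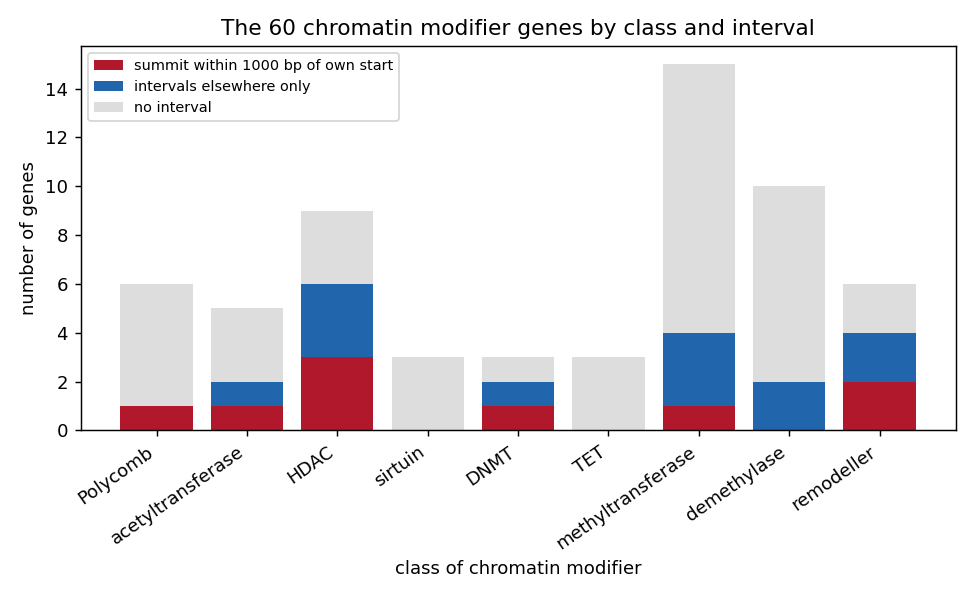
Number of chromatin modifier genes (vertical axis) in each class (horizontal axis), split by whether a summit lay within 1000 bp of the gene's own start, intervals lay elsewhere only, or no interval was assigned. Deacetylases of the HDAC family and remodellers had intervals at 6 of 9 and 4 of 6 genes, and sirtuins and TET enzymes at none. Of all protein-coding genes 15.4% had one.

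By class, the counts were uneven. HDAC genes had intervals at 6 of 9, remodellers at 4 of 6, DNA methyltransferases at 2 of 3 and acetyltransferases at 2 of 5. Histone methyltransferases had them at 4 of 15, demethylases at 2 of 10 and Polycomb genes at 1 of 6. None was assigned to the 3 sirtuins or the 3 TET genes. Over all protein-coding genes the share was 15.4%, beside 16.7% for Polycomb genes and 20% for demethylases. With classes of 3 to 15 genes these shares are counts only, and 0 of 3 cannot be told apart from 15.4%.

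Heights were those of ordinary intervals except at 3 starts. Height stands for the highest fragment density that the authors gave for an interval, and it serves only to rank intervals within the list. The 27 intervals had a median height of 14, with a range from 10 to 118, and the other 4142 a median of 14, with a range from 8 to 263. Of the 27, 3 (11.1%) reached a height of at least 40, beside 9.85% of the others. All 3 lay at the gene's own start. There 3 of 60 genes (5.0%, 1.04 to 13.9) had such a tall interval, beside 1.05% of protein-coding genes, which lies at the lower edge of that range. The 9 intervals at own starts had a median height of 18 and the 18 elsewhere 13, and the tallest of those 18 reached 24. For all 1303 intervals within 1000 bp of a listed start the median was 16, and for the remaining 2866 it was 14.

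**Figure D2:**
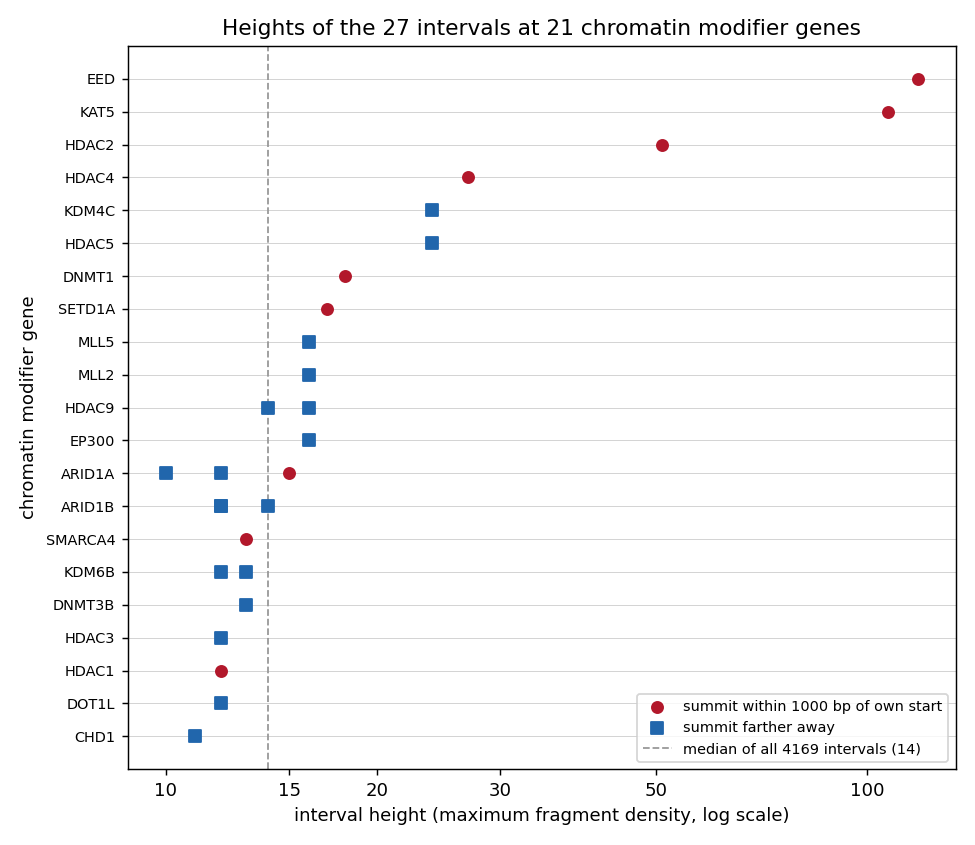
Height of each of the 27 intervals (horizontal axis, maximum fragment density, log scale) by gene (vertical axis). Circles are summits within 1000 bp of the gene's own start, squares are summits farther away, and the dashed line is the median of all 4169 intervals, 14; EED, KAT5 and HDAC2 stand apart at 118, 107 and 51.

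Among the 6 Polycomb genes of the set only EED had an interval (16.7%, beside 15.4% of all protein-coding genes). This interval was the tallest of the whole set. EED encodes the subunit of Polycomb repressive complex 2 that binds the methylated histone tail and stimulates the methyltransferase. Its interval on chromosome 11, from 85954994 to 85956930, had a height of 118 and a MACS score of 1487, and 97.8% of all intervals were lower. The score is minus 10 times log10 of the authors' MACS p-value. The summit lay 361 bp inside the gene by the authors' list and 6 bp upstream of an annotated coding transcript start, and the interval overlapped 2 CpG islands. No interval was assigned to EZH2, EZH1 or SUZ12 of the same complex, and the summit nearest to EZH2, the catalytic subunit, was 34.3 kb from the gene. For EZH1, the alternative catalytic subunit, the gap was 43.9 kb, and for SUZ12, the scaffold, it was 96.4 kb. In a partner list of further genes, chosen by complex and function, PHF1, an accessory subunit of this complex, was assigned an interval with a height of 36, whose summit lay 7403 bp from the PHF1 start, past the end of the gene and nearer the start of another gene. RNF2 (92.4 kb) and RING1 (206 kb), the ubiquitin ligases of Polycomb repressive complex 1, had none either.

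Of the acetyltransferases, KAT5 had a tall interval at its start and EP300 a much lower one past its end. KAT5 (also called TIP60) acetylates histones and ATM in the response to DNA damage. Its interval on chromosome 11, from 65478752 to 65480376, had a height of 107 and a score of 922.2. The summit was 31 bp inside the gene, in the 5′ untranslated exon, and the interval was also assigned to RNASEH2C, whose start lay 8889 bp away. The 3 E-boxes printed above lay 82, 62 and 32 bp to the left of the summit (at offsets of -82, -62 and -32), each followed by the letters AC. The interval assigned to EP300, a transcriptional coactivator, was on chromosome 22 from 41582443 to 41583752, with a height of 16, no CpG island and the summit 6.99 kb past the end of the annotated gene. CREBBP, the close relative of EP300, had its nearest summit 461 kb away. The gaps of the acetyltransferase genes KAT2A and KAT2B were 267 and 31.9 kb.

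Of the 9 HDAC genes, which encode zinc-dependent deacetylases, 3 had an interval at their own start, beside 6.87% of all protein-coding genes. With 9 genes this is a count only. HDAC2, a class I deacetylase found in several corepressor complexes, had a height of 51 on chromosome 6 from 114291781 to 114293059, with the summit 121 bp upstream and 1 CpG island. HDAC4, a class IIa deacetylase that shuttles between nucleus and cytoplasm, had a height of 27 on chromosome 2 from 240322702 to 240323966, with the summit at -621 bp from the listed start. HDAC1, the closest relative of HDAC2, had a height of only 12 on chromosome 1 from 32756846 to 32758373, with the summit at 132 bp. These paralogues thus stood at very different places in the list, with 92.3% of all intervals lower than that of HDAC2 and 14.7% lower than that of HDAC1. Their difference has no replicate error.

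For HDAC3 and HDAC5 the assigned interval lay at the start of another gene. The HDAC3 interval, on chromosome 5 from 140998668 to 140999490 with a height of 12, had its summit 17543 bp from the HDAC3 start and 258 bp from that of DIAPH1. The HDAC5 interval, on chromosome 17 from 42147423 to 42148692 with a height of 24, had its summit 53014 bp from the HDAC5 start and 98 bp from that of G6PC3. Both summits fell past the downstream end of the deacetylase gene, by 1.56 and 6.11 kb. HDAC9, another class IIa gene, had 2 intervals deep in its introns, with heights of 16 and 14 at 399778 and 462951 bp from the listed start and no CpG island. Their spacing was 63173 bp. HDAC6, HDAC7 and HDAC8 had none, with gaps of 227, 273 and 1546 kb.

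**Figure D3:**
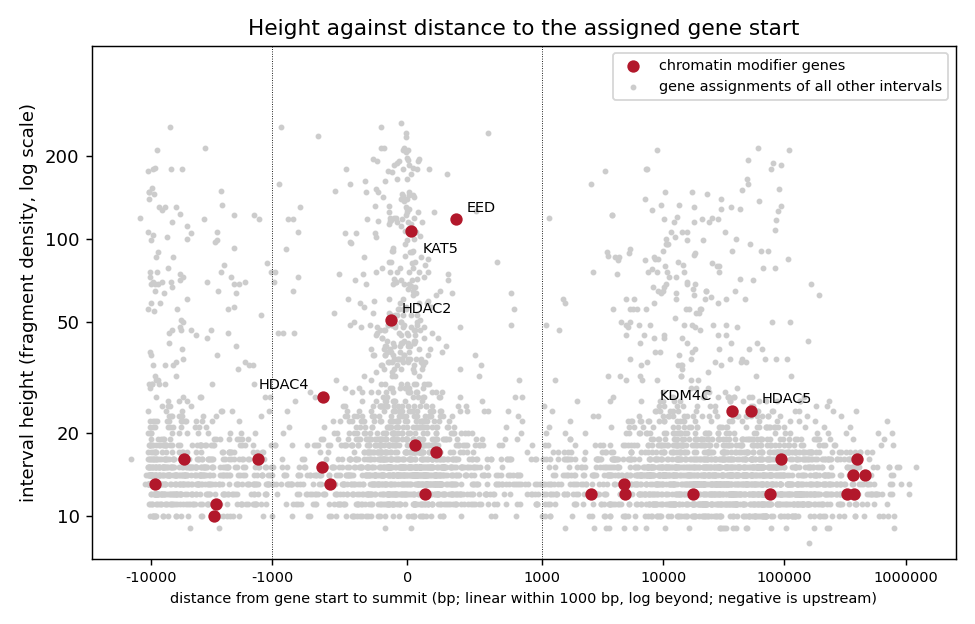
Height (vertical axis, fragment density, log scale) against the distance from gene start to summit (horizontal axis, bp, linear within 1000 bp and log beyond, negative upstream) for the chromatin modifier genes in red and for the gene assignments of all other intervals in grey. EED, KAT5 and HDAC2 lie between the dotted lines at 1000 bp to either side, and HDAC5 and KDM4C, both at 24, are the tallest away from the listed start.

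The 3 sirtuin genes of the set, which encode deacetylases that use NAD, carried no interval. The nearest summit was 120 kb from SIRT1, and 174 kb from both SIRT2 and SIRT6. In the partner list 2 of 4 further sirtuin genes had an interval, neither at its start, and SIRT3 was assigned an interval with a height of 76, but its summit lay 28810 bp from the SIRT3 start and nearer the starts of other genes.

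The maintenance DNA methyltransferase DNMT1 had an interval at its start, and the de novo enzymes did not. The DNMT1 interval on chromosome 19, from 10304379 to 10306189, had a height of 18 and its summit 59 bp inside the gene, and it overlapped 1 CpG island. DNMT3B was assigned an interval with a height of 13 whose summit lay 9359 bp upstream on chromosome 20 and at -9018 bp from the start of COMMD7, without a CpG island. DNMT3A had none within 184 kb. The TET genes, whose enzymes start active demethylation, also had none, with gaps of 154 kb for TET1, 421 kb for TET3 and 5261 kb for TET2, the widest gap of the set. TET2 lies on chromosome 4, where 38 intervals were listed in all and 5.0% of protein-coding genes had one.

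Among the 15 histone methyltransferase genes, SETD1A alone had a summit within 1000 bp of the listed start, beside 6.87% of all protein-coding genes. In the methyltransferase class of the partner list it was 5 of 20 genes. SETD1A is a catalytic subunit of a COMPASS complex that methylates histone H3 at active promoters, and its interval on chromosome 16, from 30967523 to 30969338, had a height of 17 with the summit at 217 bp in the 5′ untranslated exon. MLL2, now named KMT2D, had a height of 16 at -5389 bp from the listed start, but that summit lay 81 bp inside an annotated coding transcript that starts farther upstream, on chromosome 12 from 49454105 to 49455093. The matched symbol was checked by position, since MLL2 has been used for more than one gene. MLL5, now KMT2E, had a height of 16 at -1325 bp, and the summit was 159 bp from the start of the noncoding gene LINC01004. A further 3 summits, with heights of 21, 14 and 14, lay inside the annotated extent of KMT2E, 4530, 16290 and 33010 bp from its annotated start, but the authors' list assigned them to no gene. DOT1L, which methylates the core of histone H3, had a height of 12 in an intron at 4892 bp.

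The other 11 methyltransferase genes had no interval. The smallest gap was that of NSD1, at 12.8 kb, followed by SETDB1 at 49.2 kb and SUV39H2 at 50.1 kb. SUV39H1 stood at 121 kb, MLL3 (now KMT2C) at 239 kb, WHSC1 (now NSD2) at 431 kb and SETD7 at 480 kb. EHMT1 at 532 kb, MLL (now KMT2A) at 541 kb, SETD2 at 907 kb and EHMT2 at 1521 kb lay farther from any summit. SUV39H1 with SUV39H2 and EHMT1 with EHMT2, pairs of related enzymes that methylate the same histone tail, had no interval. Most protein-coding genes had none either, since 15.4% were assigned one. SUV39H1 lies on chromosome X, where that share was 2.76%.

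Of the 10 demethylase genes, KDM4C and KDM6B had intervals, all inside the gene by the list, and 2 of the 3 summits lay close to alternative starts in the annotation. KDM4C, which removes methyl groups from histone H3, had a height of 24 on chromosome 9 from 6757203 to 6758497. Its summit was 36993 bp from the listed start, over a CpG island and 117 bp upstream of an annotated internal coding transcript start. KDM6B, which removes the mark set by Polycomb repressive complex 2, had intervals with heights of 12 and 13, at 2557 and 4733 bp, spaced by 2176 bp and each over a CpG island. The summit of the second lay 265 bp upstream of an annotated coding start. Counted by any annotated coding transcript start, 13 of the 60 chromatin modifiers (21.7%) had a summit within 1000 bp, beside 8.13% of protein-coding genes, and the additional genes were MLL2, KDM4C, KDM6B and CHD1.

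The remaining demethylase genes had gaps from 19.7 kb at KDM4B to 335 kb at KDM3A. KDM2B stood at 29 kb, KDM2A at 85.3 kb, KDM5B at 119 kb and KDM5A at 182 kb. KDM1A, the flavin-dependent demethylase of the CoREST complex, stood at 187 kb, and KDM4A at 269 kb. None of the 39 genes without an interval had a summit within 10 kb of its annotated extent, 8 had one within 50 kb, and the median gap was 184 kb. The first count depends on how the authors' list assigned genes, since assignments in the set reached 9.36 kb beyond a gene, at DNMT3B.

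**Figure D4:**
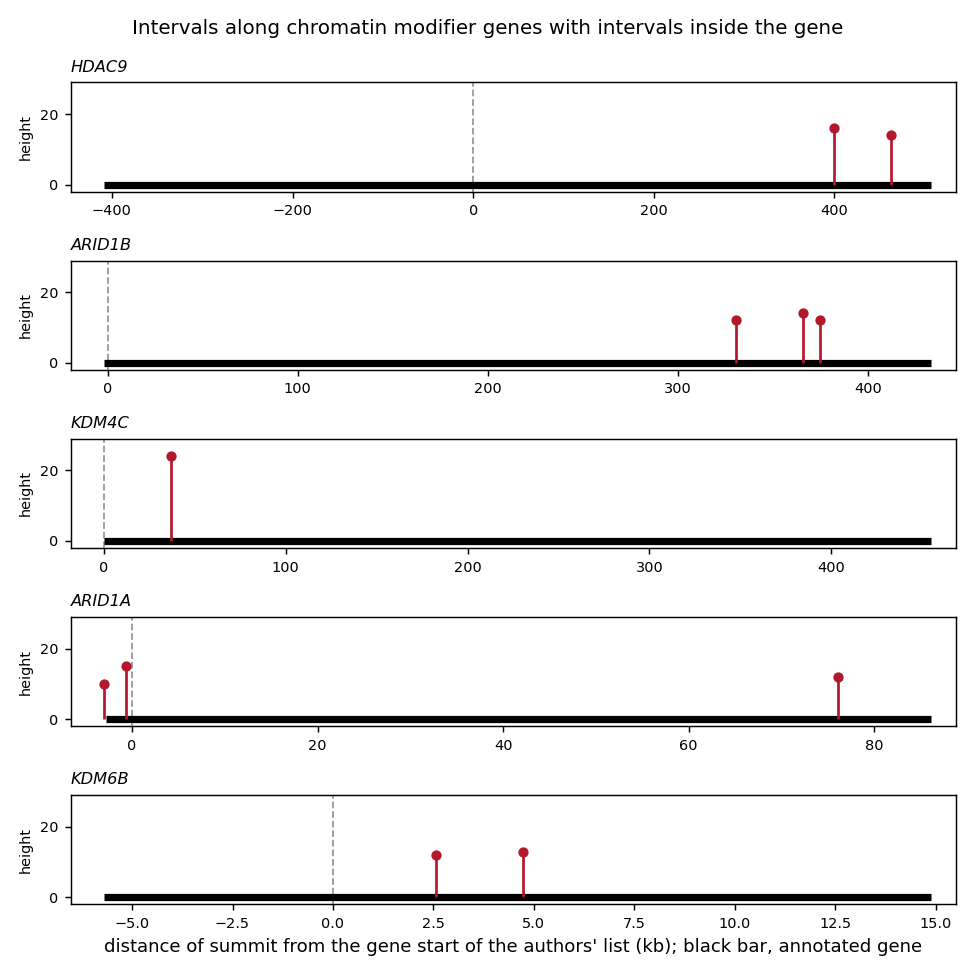
Summits along 5 chromatin modifier genes: distance from the start used in the authors' list (horizontal axis, kb, dashed line at 0) and interval height (vertical axis), with the black bar the annotated gene. HDAC9 and ARID1B have their summits far inside the gene, ARID1A has 2 of its 3 near the start, and the summits of KDM4C and KDM6B lie inside the gene.

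Among the classes of the set, remodeller genes held the most intervals for their number, 8 over 4 genes. Their heights ran from 10 to 15, around the median of 14 for all intervals. In the partner list 5 of 24 remodeller genes (20.8%) had an interval, beside 15.4% of all protein-coding genes, with heights from 11 to 73. ARID1A and ARID1B encode alternative large subunits of the BAF (SWI/SNF) complex that guide it to DNA, and each had 3 intervals. At ARID1A, on chromosome 1, heights were 10 at -3018 bp, 15 at -634 bp and 12 at 76134 bp, and the summit at -3018 bp lay 223 bp upstream of the first annotated coding start. At ARID1B, on chromosome 6, heights were 12, 14 and 12, at 330296, 365608 and 374632 bp, all in introns and without a CpG island. These paralogues differed in position, since ARID1B had no interval near its start.

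SMARCA4, an ATPase of the same complex, had a height of 13 at -574 bp on chromosome 19 from 11070118 to 11071424. SMARCA2, the alternative ATPase, had none within 377 kb. CHD1, a remodeller of transcribed genes, had a height of 11 at -2930 bp, where the summit was 457 bp upstream of an annotated coding start of CHD1. The interval was also assigned to LOC100289230, whose listed start was nearer, at 330 bp. CHD4, the ATPase of the NuRD complex, had its nearest summit 35.8 kb away.

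The intervals of the set often overlapped CpG islands. An island was overlapped by 17 of the 27 (63.0%), beside 34.8% of the other intervals, and by all 9 at own starts, beside 91.1% of all start intervals. Away from own starts it was 8 of 18 (44.4%), beside 9.49% of the intervals away from any listed start. This comparison away from starts is not like with like, since some of the 18 lay at the starts of other genes or at alternative starts. Median GC content over 300 bp around the summit was 65.7% at own starts, beside 63.0% in all start intervals.

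The E-box recurred at a few of these genes. Within 150 bp of the summit it was present in 5 of the 27 intervals (18.5%), beside 9.28% of all 4169 intervals, and in 2 or more copies in 4 of the 27 (14.8%), beside 2.25%. Those 4 were the intervals of KAT5, HDAC3, HDAC5 and KDM4C, and the one with a single copy was that of HDAC4. Of all 1303 start intervals 18.3% held the word and 6.37% held 2 or more copies, and of 15318 RefSeq promoters of protein-coding genes (GRCh38) 8.9% held it and 0.96% held 2 or more. At HDAC3 and HDAC5 the pairs lay at the starts of DIAPH1 and G6PC3. The word GGGCGG was found in 6 of the 9 start intervals, beside 54.4% of all start intervals and 59.3% of RefSeq promoters.

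Within 150 bp of the summit the AP-1 word was found in 8 of the 27 intervals (29.6%), beside 27.5% of all 4169 intervals. It was in none of the 9 at own starts. Of the 18 elsewhere 8 held it (44.4%), beside 37.6% of the intervals away from any listed start. In 7 of the 10 intervals that lay inside the gene beyond 1000 bp of its start (70%) the word lay within 150 bp of the summit, beside 40.2% of the 1262 intervals of the list that lay in a gene and at no listed start. Those 7 were both intervals of HDAC9, that of DOT1L, that of KDM4C, 1 of ARID1A and 2 of ARID1B, and the eighth of the set was the interval upstream of DNMT3B. In the 100 bp around the summit the counts were 3 of 10 (30%), beside 15.8%. Over all start intervals the word was held by 5.37%, and over RefSeq promoters by 5.73%. Several of these intervals share a gene, so they are not independent.

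Of the other words, some were found at the 9 own starts and some were not. Within 150 bp of the summit the CCAAT box was present in 2 of the 9, beside 27.9% of all start intervals and 36.6% of RefSeq promoters. The YY1 word was also present in 2 of the 9, beside 19.1% and 14.4%, and so was the NRF1 word, beside 6.14% and 8.62%. The cyclic AMP response element, its relative GTGACGT, the ETS word, TCGCGA and CGTCGC had no match in the 9 windows. Of all start intervals 3.07% held the cyclic AMP response element, 5.53% its relative, 15.8% the ETS word, 6.68% the word TCGCGA and 19.3% the word CGTCGC. Over the whole intervals, which are longer, CGTCGC was found in 5 of the 9, beside 44.4% of all start intervals, and the ETS word in 4, beside 35.6%. GTGACGT was found in 2, beside 14.0%, TCGCGA in 1, beside 16.6%, and the cyclic AMP response element in none, beside 7.21%. The GTGACGT and the CCAAT box matches in the EED sequence lay outside the window around the summit, upstream of the start used in the authors' list and inside the annotated gene, which begins farther upstream.

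**Figure D5:**
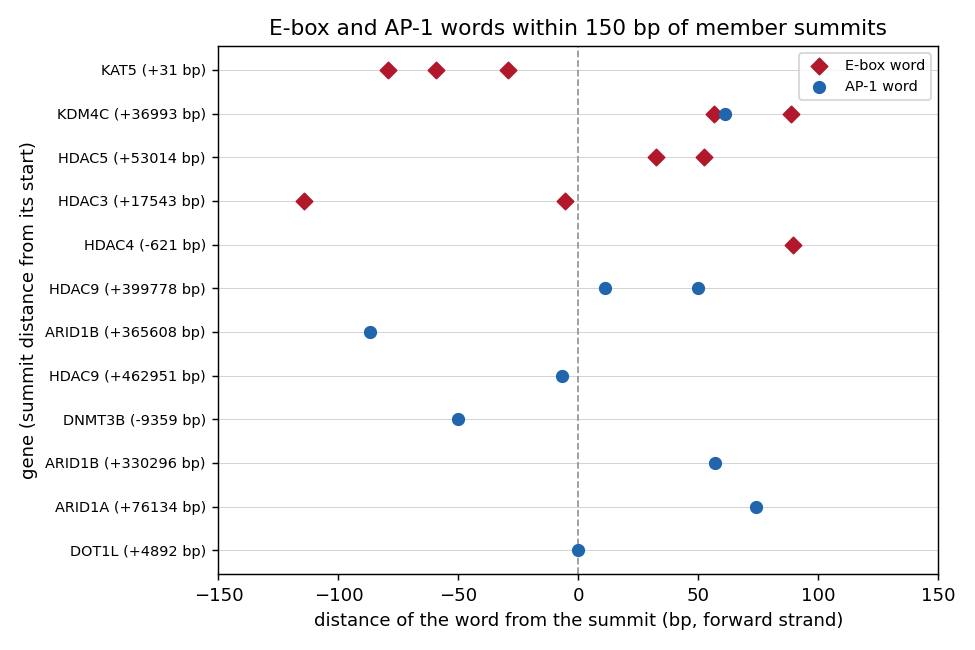
Positions of the E-box word (diamonds) and the AP-1 word (circles) relative to the summit (horizontal axis, bp, forward strand) in the 12 intervals of chromatin modifier genes that hold either, with the distance of the summit from the listed start beside each gene (vertical axis). The E-box is repeated at KAT5, KDM4C, HDAC5 and HDAC3, and the AP-1 word is found at summits away from the listed starts.

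Other genes of the same complexes and functions, 101 in all, carried an interval less often than the 60 genes and more often than protein-coding genes at large, but not by every rule. An interval was assigned to 25 of the 101 (24.8%, 16.7 to 34.3), beside 15.4% of all protein-coding genes. A summit lay within 1000 bp of the own start in 11 (10.9%, 5.56 to 18.7), beside 6.87%, which lies inside that range. A summit inside the gene by the list was found in 6 (5.94%), below the 7.56% of all protein-coding genes. With only scores from the upper quartile of the list, 12 of the 101 (11.9%) and 6 of the 60 (10%) had an interval, beside 4.81%. The 5 tallest at own starts were PRMT5, an arginine methyltransferase, with a height of 148 at -219 bp, and SMARCC2, a BAF core subunit, with 73 at -809 bp. MBD4, a glycosylase that binds methylated DNA, had 48 at -28 bp. PBRM1, a subunit of the related PBAF complex, had 47 at -166 bp in an interval shared with GNL3, and DPY30, a subunit of the COMPASS complexes, had 29 at 12 bp. Polycomb partners had intervals at 4 of 19 genes and none at a start, and 0 of 9 further demethylase genes had one. Beside the 15.4% of all protein-coding genes these are counts only, and 0 of 9 cannot be told apart from that share.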

How the data were processed

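Per the series' design text, BWA with default settings placed 75-nt NextSeq 500 reads on hg19, reads failing the purity filter, with over 2 mismatches or without a unique place were dropped, and MACS called intervals. The sources used here give no versions and do not say whether the input served as control. Per the file headers, the authors' height and mean density are signal values, and the deposited score is the MACS p-value as -10 × log10, at least 70 in this list (p = 1e-07). Both are the authors' own. Genes were matched by symbol to the list's assignments, which also give position and distance to start. The annotation was GENCODE version 44 on GRCh37, the same build, with 20136 protein-coding genes, of which 3097 had an interval. Of 3677 listed symbols, 3103 matched one by current or older symbol on the same chromosome. Words were searched over 300 bp around each summit. Python 3.11.15 with pandas 2.3.3 and scipy 1.17.1 was used, and counting steps were tested on simulated data. All 60 genes are named, with others only where they share an interval or lead the partner list, except SIRT3 and PHF1, chosen after their values were seen. Genes and lists were chosen with earlier results of these data known. With 1 ChIP library there is no test. Read depth is unknown.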

Additional observations from a re-analysis of the deposited data

How the results depend on the processing

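At or above the median score 15 of the 60 genes had an interval, 7 at their start, beside 15 of the 101 partner genes and 8.77% of protein-coding genes. With only scores from the upper quartile, 6 had one, 4 at their start, beside 12 partner genes and 4.81%, and the median of the tallest heights was 37.5. At or above the median height 14 had one, beside 10.5% of protein-coding genes, with a median of 17.5; fewer intervals enter by construction. Summits inside the gene left 11 genes, beside 7.56%. By mean density the median was 7.59, on another scale. Of listed symbols, 43.2% had a summit within 1000 bp of the start, 36.2% within 500 bp and 56.1% within 5000 bp. In 100 bp around the summit 5 of the 9 start intervals held any word, beside 49.4% of all start intervals, and in 300 bp 9 did, beside 86.9%. Counts per word moved with the window: GGGCGG was in 2 of the 9 in 100 bp, 6 in 300 bp and 9 over the whole interval. In the same order the E-box was in 1, 2 and 4, and the CCAAT box in 1, 2 and 6. The YY1 word was in 1, 2 and 5, the NRF1 word in 0, 2 and 3, and the AP-1 word in 0, 0 and 2. The count of 21 genes became 17 by annotation, beside 12.7%, and 16 where the gene had the nearest start, beside 10.9%. The order of the 3 tallest starts was the same by score and mean density. Leaving out chromosomes 4 and X, an alternative chosen after seeing the data, gave 21 of 54 genes, beside 16.4%. No paired analysis was possible because there is 1 ChIP library. Depth is unknown, so a missing interval does not show absence of signal.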
